A study of Mus musculus with 16 samples.

Results

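Dimethylation of lysine 36 of histone H3 (H3K36me2) was compared between Setd5+/- and wild-type (WT) mouse neural stem cells by chromatin immunoprecipitation and sequencing (ChIP-seq). The members are the enriched regions, called islands, in the H3K36me2 list of each genotype: 4167 islands in Setd5+/- cells and 4566 in WT cells, or 8733 of the 213103 islands in the 13 lists used here. Comparisons were made on the 16 autosomes other than 1, 4 and 15, which hold 1736 Setd5+/- islands and 3643 WT islands, and the 3 remaining autosomes are given beside them. A Setd5+/- island with no WT island overlapping it by at least 1 bp is called gained, a WT island with no Setd5+/- island over it is called lost, and the others are called shared.

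The Setd5+/- cells are heterozygous at Setd5, a SET domain gene whose product the series title names as an H3K36 methyltransferase, and the labels describe the mutant allele no further. Both cultures were derived from E14.5 cortex, grown as floating neurospheres with bFGF and EGF, moved to Matrigel and fixed in 1% formaldehyde. Each genotype has 1 library per mark (H3K36me2, H3K36me3, H3K4me1, H3K4me3, H3K27ac and H3K27me3), and V5-tagged SETD5 was profiled in WT cells only. The number of embryos or cultures behind a library is not given in the sources used here, so every difference below is a difference between 2 libraries, with no replicate and no p-value.

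H3K36me2 is laid down by the methyltransferases NSD1, NSD2, NSD3 and ASH1L, and in most mammalian cells it spreads over broad intergenic and intronic stretches. H3K36me3, made by SETD2 behind elongating RNA polymerase II, sits inside transcribed genes. H3K36me2 is read by the DNA methyltransferase DNMT3A, and methylated H3K36 hinders Polycomb repressive complex 2, which writes H3K27me3.

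The promoters below lie wholly inside gained or lost islands and are shown so that the underlying sequence can be read beside the result: those of Cbfa2t2 and Ogn in gained islands and those of Bmpr1a and Setd5 in lost islands. They were chosen after the values were seen, among genes named below. Each window runs from 250 bases before to 50 bases after a RefSeq start on GRCm38.p6, and CG dinucleotides are in capitals. Cbfa2t2, which encodes a transcriptional corepressor of the ETO family, has its window at chr2:154436234-154436533, plus strand, with 51 CG. Ogn, which encodes the extracellular matrix proteoglycan osteoglycin, has its window at chr13:49607765-49608064, plus strand, with 4 CG. Bmpr1a, a type I receptor for bone morphogenetic proteins, has its window at chr14:34502497-34502796, minus strand, with 48 CG. The Setd5 window, at chr6:113104685-113104984 on the plus strand, holds 1 CG and belongs to a start inside the annotated span of the gene.
Cbfa2t2: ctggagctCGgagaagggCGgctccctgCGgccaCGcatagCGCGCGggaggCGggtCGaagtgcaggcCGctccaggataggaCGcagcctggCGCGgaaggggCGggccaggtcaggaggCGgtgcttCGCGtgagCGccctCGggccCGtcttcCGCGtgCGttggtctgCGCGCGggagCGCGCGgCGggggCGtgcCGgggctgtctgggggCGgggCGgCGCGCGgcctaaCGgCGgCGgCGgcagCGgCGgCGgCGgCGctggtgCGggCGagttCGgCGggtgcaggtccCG
Ogn: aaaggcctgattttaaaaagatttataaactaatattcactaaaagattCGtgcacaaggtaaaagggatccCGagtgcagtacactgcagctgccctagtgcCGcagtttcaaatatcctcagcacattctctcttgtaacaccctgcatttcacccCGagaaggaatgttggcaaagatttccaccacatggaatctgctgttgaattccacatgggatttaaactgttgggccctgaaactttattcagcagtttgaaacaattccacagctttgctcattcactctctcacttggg
Bmpr1a: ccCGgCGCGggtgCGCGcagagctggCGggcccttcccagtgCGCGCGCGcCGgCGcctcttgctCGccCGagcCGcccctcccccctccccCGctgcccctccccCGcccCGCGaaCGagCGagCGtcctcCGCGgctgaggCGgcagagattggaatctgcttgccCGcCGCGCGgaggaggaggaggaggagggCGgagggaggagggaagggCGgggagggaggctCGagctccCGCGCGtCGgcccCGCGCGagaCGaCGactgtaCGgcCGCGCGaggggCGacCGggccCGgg
Setd5: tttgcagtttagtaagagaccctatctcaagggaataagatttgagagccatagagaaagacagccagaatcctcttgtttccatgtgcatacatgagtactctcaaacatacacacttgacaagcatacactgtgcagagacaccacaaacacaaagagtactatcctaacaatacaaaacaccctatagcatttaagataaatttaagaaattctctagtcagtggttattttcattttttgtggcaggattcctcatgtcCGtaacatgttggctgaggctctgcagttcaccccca

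The Cbfa2t2 promoter lay in a Setd5+/- island of 35.2 kb with 581 reads (chr2:154411201-154446400), and the Ogn promoter in a Setd5+/- island of 17.6 kb with 320 reads (chr13:49607201-49624800). The Bmpr1a promoter lay in a WT island of 23.2 kb with 324 reads (chr14:34488801-34512000). The Setd5 window lay in a WT island of 18.4 kb with 277 reads (chr6:113090401-113108800). The other genotype had no H3K36me2 island at any of these 4 windows. H3K4me3, the promoter mark, covered the whole Cbfa2t2 window in both genotypes and did not reach the other 3 windows in either.

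Few promoters lay in H3K36me2 islands, and those that did had fewer CG than promoters at large. Of 16979 RefSeq promoter windows on the 16 autosomes, 36 lay wholly inside gained islands and 97 wholly inside lost islands. The median number of CG dinucleotides was 7 in gained and 7 in lost islands, 4 in shared Setd5+/- islands, 3.5 in shared WT islands and 13 over all windows. At least 10 CG were found in 41.7% of the windows in gained islands and 45.4% of those in lost islands, against 57.6% of all windows; CG reads the same on both strands. H3K4me3 lay on 20 of the 36 windows in gained islands in Setd5+/- cells and on 19 in WT cells. It lay on 55 of the 97 windows in lost islands in Setd5+/- cells and on 54 in WT cells. The net number of windows with H3K4me3 thus differed by 1 between the genotypes, in gained and in lost islands. Among lost islands, windows of Rnase10, Ppargc1a and Nck1 had H3K4me3 in Setd5+/- cells only. Those of Tab2 and Ppp2r3a had H3K4me3 in WT cells only.

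Depth and the chromosomes set apart bear on everything that follows. Total reads per library are not given, and reads inside H3K36me2 islands numbered 2418955 in Setd5+/- and 1073942 in WT cells, of which 615109 and 853368 fell on the 16 autosomes. The island with the fewest reads on those autosomes held 75 reads in Setd5+/- and 38 in WT cells, so an island absent from a list was not called there and may still carry the mark below that list's limit. Fewer cells with the mark and less mark per cell cannot be told apart in such bulk libraries. Chromosomes 1, 4 and 15 had 63.1, 10.7 and 13.7 Mb of H3K36me2 in Setd5+/- cells, against 6.96, 3.46 and 3.50 Mb in WT cells. The other 5 marks were also longer in Setd5+/- cells on chromosome 1 (1.44 to 2.42 times) and on chromosome 15 (1.12 to 1.55 times), and on chromosome 4 they ran from 0.836 times for H3K4me1 to 1.25 times for H3K27me3. What part this has in the H3K36me2 values of these 3 chromosomes was not tested. Of 12 neural stem cell markers, 11 had H3K4me3 at a gene end in Setd5+/- cells and 11 in WT cells, Pax6 lacking it in both. H3K4me3 marked 1 of 6 neuronal markers and 2 of 4 oligodendrocyte lineage markers in each genotype, 2 of 6 endothelial and mesenchymal markers in each, 0 of 3 astrocyte markers in Setd5+/- and 1 of 3 in WT cells, and 0 of 5 microglia and blood markers in either.

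On the 16 autosomes H3K36me2 covered 33.6 Mb in Setd5+/- cells and 54.98 Mb in WT cells, a ratio of 0.611. Gained islands were 833 of 1736, or 48% of the Setd5+/- list (95% exact Clopper-Pearson interval 45.6 to 50.4), and lost islands were 2651 of 3643, or 72.8% of the WT list (71.3 to 74.2). These intervals, as all below, cover counting error only. Both genotypes covered the same 11.8 Mb, which was 35.2% of the Setd5+/- length and 21.5% of the WT length. Gained islands held 14.9 Mb and lost islands 37.2 Mb. Inside shared islands a further 6.84 Mb was covered in Setd5+/- cells only and 5.90 Mb in WT cells only. Most of the difference in length thus lay in whole islands rather than in the edges of shared ones: 68.6% of the Setd5+/- only length was in gained islands and 86.3% of the WT only length in lost islands.

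The balance turned on the 3 chromosomes set apart. Gained islands made up 79.7% of the Setd5+/- islands of chromosome 1 (1242 of 1559), 75.3% of those of chromosome 4 (253 of 336) and 66.9% of those of chromosome 15 (355 of 531). Lost islands made up 4.34% of the WT islands of chromosome 1 (20 of 461), 55.7% of those of chromosome 4 (128 of 230) and 8.11% of those of chromosome 15 (18 of 222). Over these 3 together 76.3% of Setd5+/- islands were gained and 18.2% of WT islands lost, and over all 19 autosomes 64.5% and 61.8%. With all autosomes counted, the covered length was 1.76 times as long in Setd5+/- as in WT cells, so the direction of the overall difference depends on leaving these chromosomes out. Chromosome X held 5 Setd5+/- islands and 10 WT islands, none of them shared.

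Among the 16 autosomes the difference varied but kept its direction on 15. The covered length in Setd5+/- over WT cells ran from 0.437 on chromosome 6 to 0.695 on chromosome 11, with 1.06 on chromosome 13. Chromosome 13 was the densest in both genotypes, with 5.11% of its annotated span covered in Setd5+/- and 4.80% in WT cells, and it had the lowest lost share, 52.7%. The highest lost share was 83.7% on chromosome 9. The gained share ran from 35.2% on chromosome 12 to 60.0% on chromosome 8. Median reads per kb were even from chromosome to chromosome, 17.6 to 18.4 in Setd5+/- and 15.0 to 15.7 in WT cells. Without chromosome 13 the lost share was 74.9%.

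**Figure D1:**
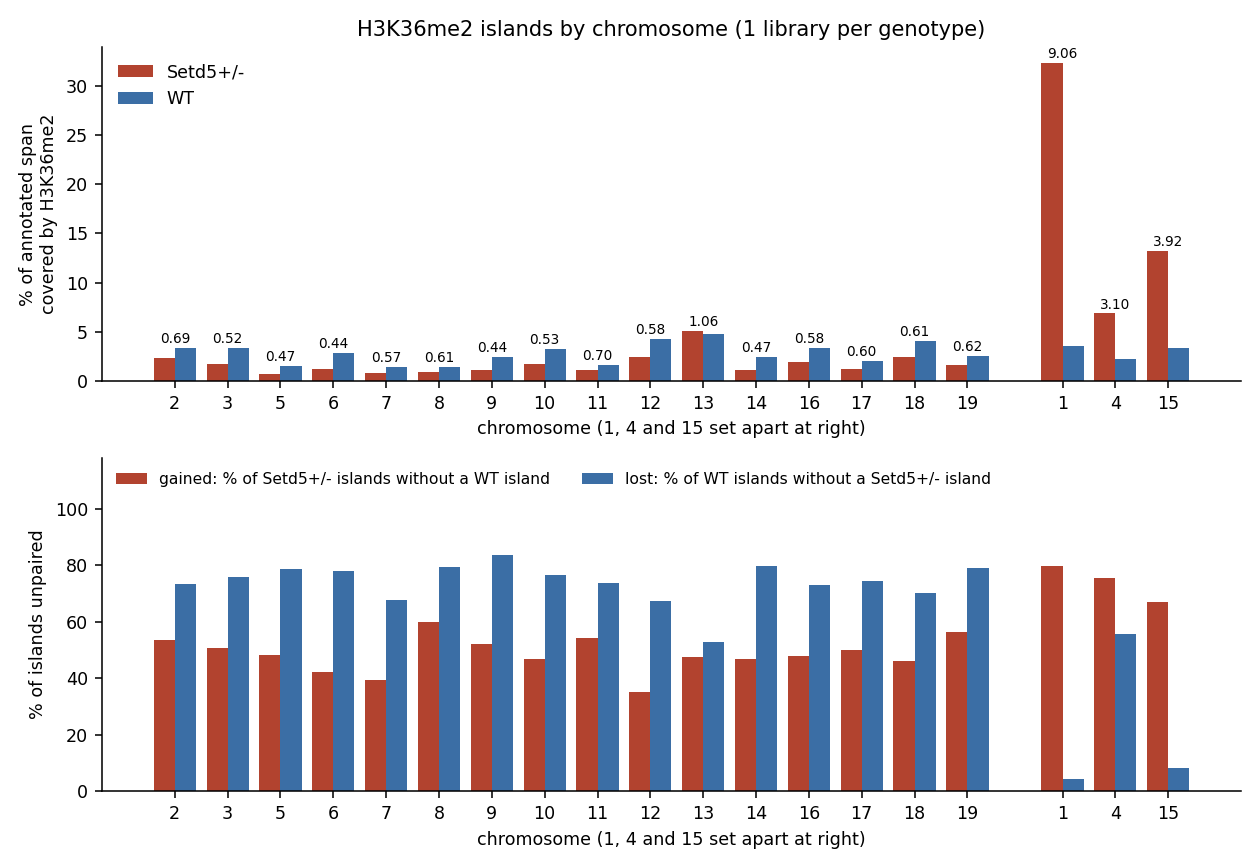
Upper bars give the percent of each chromosome's annotated span under H3K36me2 islands in Setd5+/- (red) and WT (blue) cells, with the ratio of covered lengths above each pair, and lower bars the percent of Setd5+/- islands gained and of WT islands lost. Chromosomes 1, 4 and 15, set apart at right, have ratios of 9.06, 3.10 and 3.92, against 0.437 to 1.06 on the others.

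Gained and lost islands were narrower than shared islands of their own list. The median width was 16.8 kb for gained islands (middle 50% from 13.6 to 20.8 kb) and 18.4 kb for shared Setd5+/- islands (14.4 to 23.2 kb). It was 12.8 kb for lost islands (10.4 to 16.8 kb) and 15.2 kb for shared WT islands (11.2 to 21.8 kb). Median reads per kb differed less, 17.7 in gained and 18.1 in shared Setd5+/- islands, 15.4 in lost and 15.8 in shared WT islands. When an overlap of 50% of the island was required, gained and shared Setd5+/- islands had equal median widths, and with islands within 10 kb merged the median density of lost islands was no longer below that of shared ones. The lists themselves differed more in density than the classes within them. The lowest read density of any island was 14.1 reads per kb in Setd5+/- and 11.9 in WT cells, and 323 of the 2651 lost islands (12.2%), against 41 of the 992 shared WT islands (4.13%), lay below 14.1. That limit is the single lowest Setd5+/- island, and most of the list lay well above it. The 5th percentile was 16.1 reads per kb in gained and 16.5 in shared Setd5+/- islands. The middle 50% ran from 14.6 to 16.25 in lost and from 15.1 to 16.7 in shared WT islands. What part the calling limit has in the lost share was not tested.

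**Figure D2:**
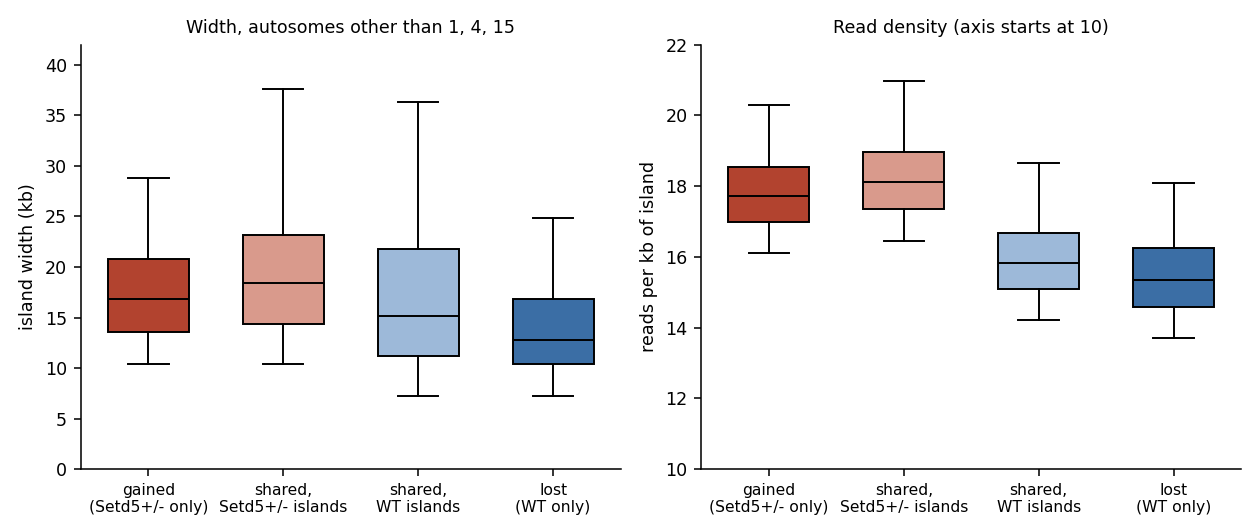
Island width in kb (left) and reads per kb of island (right, axis from 10) for gained and shared Setd5+/- islands and for shared and lost WT islands on the 16 autosomes; boxes span the middle 50%, lines are medians and whiskers run from the 5th to the 95th percentile. Median widths are 16.8, 18.4, 15.2 and 12.8 kb from left to right.

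The share of islands without a partner fell with width and read density. A wider island is likelier to meet the 1 bp rule, and the classes below were not redone with a 50% overlap. With the Setd5+/- list divided into 4 equal classes from narrowest to widest, 51.8%, 54.1%, 48.6% and 37.3% of islands were gained. In the WT list divided likewise, 77.4%, 76.9%, 77.6% and 59.2% were lost, so the widest class differed from the others. From the lowest to the highest of 4 classes by reads per kb, 57.6%, 53.0%, 42.9% and 38.5% of Setd5+/- islands were gained and 84.5%, 76.0%, 66.8% and 63.8% of WT islands were lost. In the WT class of highest density, from 16.4 to 50.0 reads per kb, 581 of 911 islands still had no Setd5+/- island over them.

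**Figure D3:**
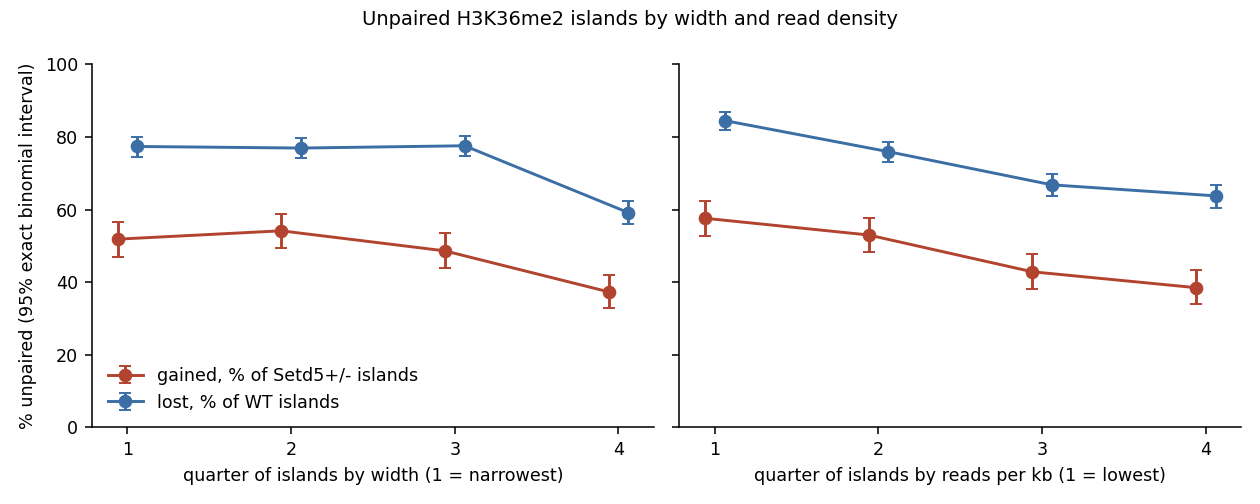
Percent of Setd5+/- islands gained (red) and of WT islands lost (blue) in 4 equal classes of each list by width (left) and by reads per kb (right), with 95% exact binomial intervals. The lost share stays near 77% in the 3 narrower classes and is 59.2% in the widest, while both shares fall steadily with read density.

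The broadest domains were nearly all shared. Of islands of at least 40 kb, 6 of 42 Setd5+/- islands were gained (14.3%, exact interval 5.43 to 28.5) and 3 of 39 WT islands were lost (7.69%, 1.62 to 20.9). At 30 kb or more the counts were 32 of 126 (25.4%) gained and 39 of 142 (27.5%) lost, and at 20 kb or more 262 of 641 (40.9%) gained and 347 of 650 (53.4%) lost. Under the 1 bp rule the excess of lost over gained islands was therefore seen among islands narrower than 30 kb.

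Shared islands were joined across the genotypes into 822 domains. In Setd5+/- cells 462 of these domains were wider, 326 narrower and 34 of equal width, and the median width was 19.2 kb in Setd5+/- and 17.6 kb in WT cells. The median log2 ratio of reads per kb, Setd5+/- over WT, was 0.19, a value that includes the unknown difference in total depth. A single domain was split into more than 1 island 36 times in Setd5+/- and 116 times in WT cells. On chromosome 1, 288 of 295 shared domains were wider in Setd5+/- cells, with a median of 68.0 kb against 16.0 kb in WT cells.

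The joined domain with the most reads among those named for a rise in read density lies in Npas3, which encodes a basic helix-loop-helix PAS transcription factor of the brain. It measured 136.8 kb with 3202 reads in Setd5+/- cells and 104.8 kb with 1582 reads in WT cells, at 23.4 and 15.1 reads per kb (chr12:53901601-54043200). Relative to the median shared domain its log2 ratio was 0.44. The WT length was made of 3 islands and the Setd5+/- length of 1. The same gene had 10 lost islands and 1 gained island, and its whole body was covered over 21.3% in Setd5+/- and 37.6% in WT cells. The called mark was thus wider toward the end of Npas3 with the higher coordinate. Most WT islands elsewhere in the gene had no Setd5+/- island over them.

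The other domains chosen for a change in density changed width the opposite way. Eif4a3l1, a retrogene related to the helicase gene Eif4a3, lay in a domain of 8.80 kb at 42.2 reads per kb in Setd5+/- cells, against 16.0 kb at 26.3 reads per kb in WT cells. In Myo16, an unconventional myosin gene, the domain had 8 kb at 22.3 reads per kb in Setd5+/- cells, against 27.2 kb at 15.3 reads per kb in WT cells. The domains near Actbl2 and Arhgap12 were likewise narrower and denser in Setd5+/- cells. All 5 domains with the largest fall in density, near Adgrl2, Ndfip2 and Nubpl and in Kctd14 and Ehbp1, were wider in Setd5+/- cells. Near Adgrl2, an adhesion receptor gene, the domain had 29.6 kb at 17.1 reads per kb in Setd5+/- cells and 9.60 kb at 22.1 reads per kb in WT cells. These 10 domains were picked by the ratio they illustrate, from 816 domains with at least 100 reads in both genotypes.

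Lost islands lay in genes more often than shared ones. Protein-coding genes held 41.98% of the length of gained islands, 31.2% of shared Setd5+/- islands, 48.1% of lost islands and 32.3% of shared WT islands, and 40.5% of the annotated span of the 16 autosomes. Islands wholly inside a gene made up 39.0% of gained (325 of 833), 29.7% of shared Setd5+/- (268 of 903), 46.2% of lost (1226 of 2651) and 31.0% of shared WT islands (308 of 992). The exact 95% intervals of the gained and shared Setd5+/- shares do not meet (35.7 to 42.4 against 26.7 to 32.8), and neither do those of lost and shared WT islands (44.3 to 48.2 against 28.2 to 34.0). Islands of 1 library are not replicates, so these intervals speak only of these lists. The median length of the genes hosting an island was 250 kb for gained, 376 kb for shared Setd5+/-, 273 kb for lost and 396 kb for shared WT islands, against 16.8 kb over all protein-coding genes. The last value counts each gene once, whereas an island placed anywhere is likelier to meet a longer gene. No median weighted by gene length was computed, so a preference for long genes cannot be read from these values.

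Little H3K36me2 of any class lay under H3K36me3. The median distance to the nearest H3K36me3 island of the same genotype was 170.4 kb for gained, 215.2 kb for shared Setd5+/-, 176.0 kb for lost and 212.8 kb for shared WT islands. Points set every 10 kb along the same chromosomes had medians of 206.6 kb in Setd5+/- and 206.1 kb in WT cells. H3K36me3 of the same genotype covered 3.34% of gained, 3.29% of shared Setd5+/-, 4.40% of lost and 2.52% of shared WT length, against 7.46% of the span in Setd5+/- and 7.65% in WT cells. Some H3K36me3 overlapped 51 of the 833 gained islands (6.12%) and 208 of the 2651 lost islands (7.85%). Lost islands thus had a shorter median distance to H3K36me3 than shared WT islands, but not when only H3K36me3 islands above the median density were used (354.4 kb for lost and 350.8 kb for shared WT islands).

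The 3 chromosomes set apart differed here as well. Gained islands on chromosomes 1, 4 and 15 lay a median of 45.6 kb from Setd5+/- H3K36me3 and were covered by it over 18.4% of their length. The same islands lay 98.4 kb from WT H3K36me3, with 7.70% of their length covered.

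Little of the lost H3K36me2 length lay under H3K27me3 islands in either genotype. Reads in H3K27me3 islands of the 16 autosomes numbered 855877 in Setd5+/- and 1441024 in WT cells. Total depth is not given, so a difference in depth and a difference in the mark cannot be told apart in these counts. Whether the loss of H3K36me2 bears on H3K27me3 was not tested. H3K27me3 covered 0.153% of lost length in Setd5+/- and 0.0886% in WT cells, and touched 21 and 16 of the 2651 lost islands. Over the whole span of the 16 autosomes it covered 1.40% in Setd5+/- and 1.77% in WT cells. Over gained islands it covered 0.217% in Setd5+/- and 0.441% in WT cells, touching 5 and 12 of 833 islands. H3K27me3 thus stood below its average level over every class in both genotypes.

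Marks of active regulatory DNA were more frequent over H3K36me2 than elsewhere. H3K4me1, found at enhancers, covered 6.11% of lost length in Setd5+/- and 9.50% in WT cells, against 1.64% and 2.72% of the span. Over gained length it covered 5.40% in Setd5+/- and 7.34% in WT cells. H3K4me1 was thus shorter in Setd5+/- cells over gained and lost islands, as it was over the whole span. H3K27ac, a mark of active enhancers and promoters, covered 4.00% of lost length in Setd5+/- and 5.07% in WT cells, and 2.99% and 3.06% of gained length, against 1.40% and 1.48% of the span. H3K4me3 covered 2.05% of lost length in Setd5+/- and 1.57% in WT cells, near its span values of 1.82% and 1.75%. V5-tagged SETD5, profiled in WT cells, covered 1.49% of gained and 1.14% of lost length, against 4.27% of the span.

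**Figure D4:**
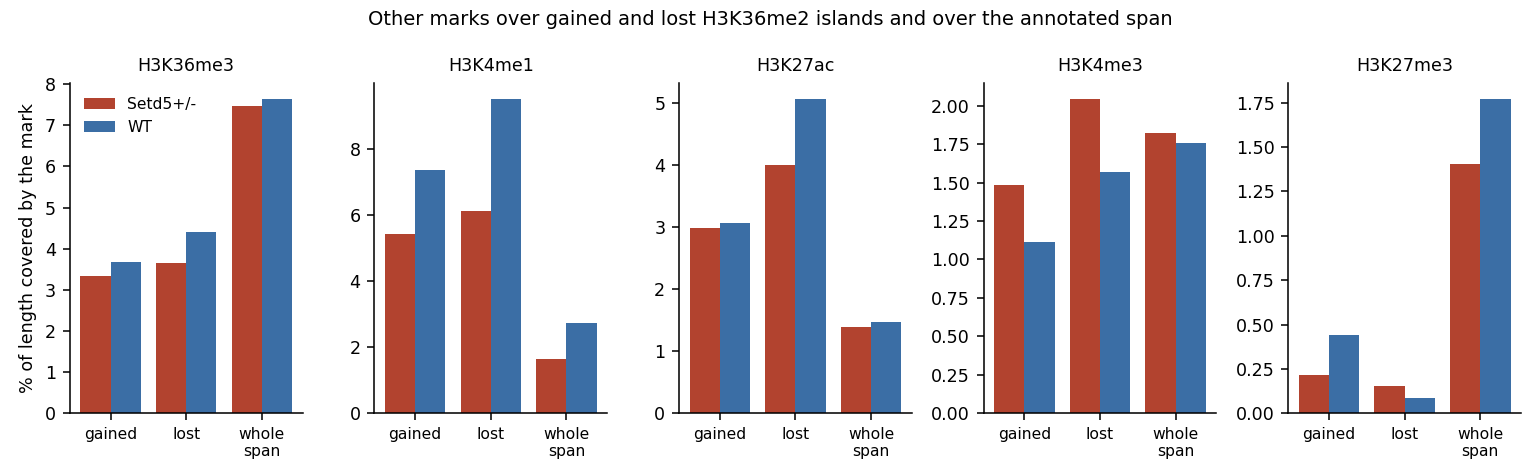
Percent of length covered by each of 5 other marks over gained islands, over lost islands and over the whole annotated span of the 16 autosomes, in Setd5+/- (red) and WT (blue) cells; each panel has its own axis. H3K4me1 and H3K27ac stand above the span over both classes, and H3K27me3 and H3K36me3 stand below it.

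The next island was more often gained after a gained island, and lost after a lost island, than after a shared one. The next Setd5+/- island along the chromosome was gained after 478 of 824 gained islands (58.0%) and after 343 of 896 shared islands (38.3%), a difference of 19.7 percentage points. The next WT island was lost after 2107 of 2638 lost islands (79.9%) and after 530 of 989 shared islands (53.6%), a difference of 26.3 points. Within single chromosomes the difference was above 0 on 14 of 16 for gained islands, from -21.4 points on chromosome 5 to 34.9 on chromosome 13. For lost islands it was above 0 on 15 of 16, from -2.00 on chromosome 11 to 35.5 on chromosome 10. Part of these differences is fixed by the pairing rule, since neighbouring islands under 1 partner island are all shared. The 903 shared Setd5+/- islands and 992 shared WT islands joined into only 822 domains. The differences were not computed without steps inside a domain, so the clustering beyond this part is not known. Runs of at least 10 consecutive islands numbered 3 among gained islands, with 61 islands, and 79 among lost islands, with 1226, though long runs are more frequent where a larger share of the list is unpaired, and these counts were not set against that.

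The genotypes overlapped in part in the stretches they used. Of 1995 bins of 1 Mb, 624 held a Setd5+/- island, 939 a WT island and 542 both. Of the 833 gained islands, 711 (85.4%) fell in bins that also held a WT island, and such bins were 47.1% of all. Counts per bin in the genotypes had a Pearson correlation of 0.817 and a Spearman correlation of 0.663 over the 1995 bins, which are not independent, since neighbouring bins share domains. Islands crowded by others were lost less often: 88.4% of WT islands alone in their bin were lost, against 65.5% in bins with 5 or more. Bins with 1 WT island held a mean of 0.368 Setd5+/- islands and bins with 5 or more a mean of 4.15. An overlap is likelier where more Setd5+/- islands lie, and the lost shares were not adjusted for this. Gained islands lay a median of 44.0 kb from the nearest WT island, with 67.2% within 100 kb, whereas 17.3% of the span outside WT islands lies that near. Lost islands lay a median of 120 kb from the nearest Setd5+/- island, with 46.8% within 100 kb, against 10.0% of the span outside Setd5+/- islands.

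The longest gained run lay on chromosome 13 (chr13:34708801-63392000), with 33 consecutive Setd5+/- islands that had no WT island over them and 24 WT islands between them. It passes through Ecm2, Omd and Ogn, neighbouring genes of extracellular matrix proteins, and through Ntrk2, the receptor gene for BDNF, and Fancc of the Fanconi anaemia pathway. Omd, which encodes osteomodulin, and Ogn were covered over 100% of their span in Setd5+/- and 0% in WT cells, by islands of 21.6 kb with 378 reads and 17.6 kb with 320 reads. Ecm2 had 34.3% in Setd5+/- and 0% in WT cells. Cenpp, a centromere protein gene that spans this cluster, had 38.1% in Setd5+/- and 0% in WT cells, while Ntrk2 had less of the mark in Setd5+/- cells, 7.08% against 12.7%.

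A shorter gained run on chromosome 2 (chr2:154392801-158706400) held 14 Setd5+/- islands over 4.31 Mb and no WT island. Its widest island covered 55.2 kb of Raly, an RNA-binding protein gene, with 1082 reads, and Raly had 81.3% of its body covered in Setd5+/- and 0% in WT cells. Rbm12, another RNA-binding protein gene, had 86.2% in Setd5+/- cells, the neighbouring copine gene Cpne1 67.8%, the transglutaminase gene Tgm2 66.7% and Cbfa2t2 40.2%, each against 0% in WT cells. H3K36me3 was also longer over several of these genes, with 60.7% in Setd5+/- and 30.7% in WT cells at Raly and 49.0% and 26.3% at Cbfa2t2. Across this run H3K27ac was 1.88 times as long in Setd5+/- as in WT cells, H3K36me3 1.34, H3K4me3 1.32, H3K4me1 1.18 and H3K27me3 0.989 times. The shared islands of all 5 marks there were denser by log2 0.11 to 0.24 in Setd5+/- cells, relative to the 16 autosomes. Over the 16 autosomes the length ratio was 0.948 for H3K27ac, 0.976 for H3K36me3, 1.04 for H3K4me3, 0.606 for H3K4me1 and 0.792 for H3K27me3. All 5 length ratios in this run were above those values, and what part this has in the H3K36me2 values was not tested. In the other runs named here the density of those marks lay closer to 0, apart from the gained run on chromosome 3.

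The gained run on chromosome 3 (chr3:116088001-120099200) held 14 Setd5+/- islands and 9 WT islands between them. With predicted genes skipped, the gene overlapped by its gained islands is Dpyd, of pyrimidine breakdown, which fills only part of the stretch. Dpyd had 5 Setd5+/- islands and 5 WT islands, none of which overlap. Dpyd was covered over 9.46% of its body in Setd5+/- and 7.99% in WT cells, so the mark had different positions at much the same extent.

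The longest lost run lay on chromosome 14 (chr14:24730401-62569600), with 35 WT islands and 7 Setd5+/- islands between them. It includes Bmpr1a, covered over 0% in Setd5+/- and 15.8% in WT cells, the calcium channel subunit gene Cacna2d3, with 0.472% and 10.6%, and the active zone gene Erc2, with 2.52% and 5.42%. Xpo4, which encodes a nuclear export receptor, had 0% in Setd5+/- and 26.5% in WT cells. A run of 30 WT islands on chromosome 3 (chr3:81823201-107273600), with 2 Setd5+/- islands between them, includes Notch2, a receptor that maintains neural progenitors, with 0% in Setd5+/- and 12.9% in WT cells. Fbxw7, a ubiquitin ligase subunit gene that limits Notch and cyclin E, had 0% and 17.1%, and Rap1a, a small GTPase gene, 0% and 49.6%. Another run of 30 WT islands on chromosome 6 (chr6:57714401-92515200) includes Aak1 of endocytosis, with 0% in Setd5+/- and 10.9% in WT cells, and the planar polarity gene Prickle2, with 0% and 3.10%.

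H3K36me3 over genes of the lost runs did not move in 1 direction. It was lower in Setd5+/- cells at Trim33, 56.8% against 83.0% in WT cells, and at Kcnd3, 17.1% against 41.6%. It was higher in Setd5+/- cells at Notch2, 57.3% against 39.2%, and at Xpo4, 70.6% against 38.0%.

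Among the 10 gained islands with most reads, the first and second stood apart from all others. They lie on chromosome 2 near Cwc22, a splicing factor gene (chr2:77969601-77997600 and chr2:78000801-78012800), with 6718 and 2488 reads, or 239.9 and 207.3 reads per kb. The other islands among the 10 had 17.1 to 19.6 reads per kb. Over the same bases 4 of the 11 lists of other marks and SETD5-V5 also had islands, at 144.8 to 227.3 reads per kb, in lists whose median island had 17.7 to 26.1. Dense signal at this place was thus seen in both genotypes, and the H3K36me2 difference there rests on whether an island was called. The remaining gained islands with most reads include 46.4 kb in the muscarinic receptor gene Chrm3, 39.2 kb in Dip2c and islands near Tox3, Rorb and Pik3r1. Chrm3 had 6 Setd5+/- islands, 4 of them gained, and 3 WT islands, 1 of them lost, and was covered over 26.9% in Setd5+/- and 13.3% in WT cells.

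The lost island with most reads lies in Cpvl, a carboxypeptidase gene, with 776 reads over 49.6 kb in WT cells (chr6:53882401-53932000), at 15.6 reads per kb. Cpvl was covered over 13.6% in Setd5+/- and 58.4% in WT cells. Nlgn1, which encodes the postsynaptic adhesion protein neuroligin 1, held a lost island of 38.4 kb with 606 reads (chr3:25821601-25860000). The islands directly before and after it, of 25.6 kb each with 377 and 369 reads, were lost as well. Over the whole gene Setd5+/- cells had 9 islands, 1 of them gained, and WT cells had 18, with 8 lost, and coverage was 17.6% in Setd5+/- and 36% in WT cells. Tafa1, which encodes a secreted chemokine-like protein of the brain, had no Setd5+/- island and 10 WT islands of 8 to 35.2 kb at 14.9 to 18.0 reads per kb, so coverage was 0% in Setd5+/- and 29.3% in WT cells. H3K36me3 was absent from Tafa1 in both genotypes.

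Gap43, a growth cone gene, had 1 island in Setd5+/- and 3 in WT cells, and 20.8% and 55.6% of its body was covered. The lost islands with most reads outside Cpvl, Nlgn1 and Tafa1 lie between genes, near Adamts9, Fndc1, Fam181b, Immp2l, Rfpl4b, Dnajb9 and Eno1b.

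**Figure D5:**
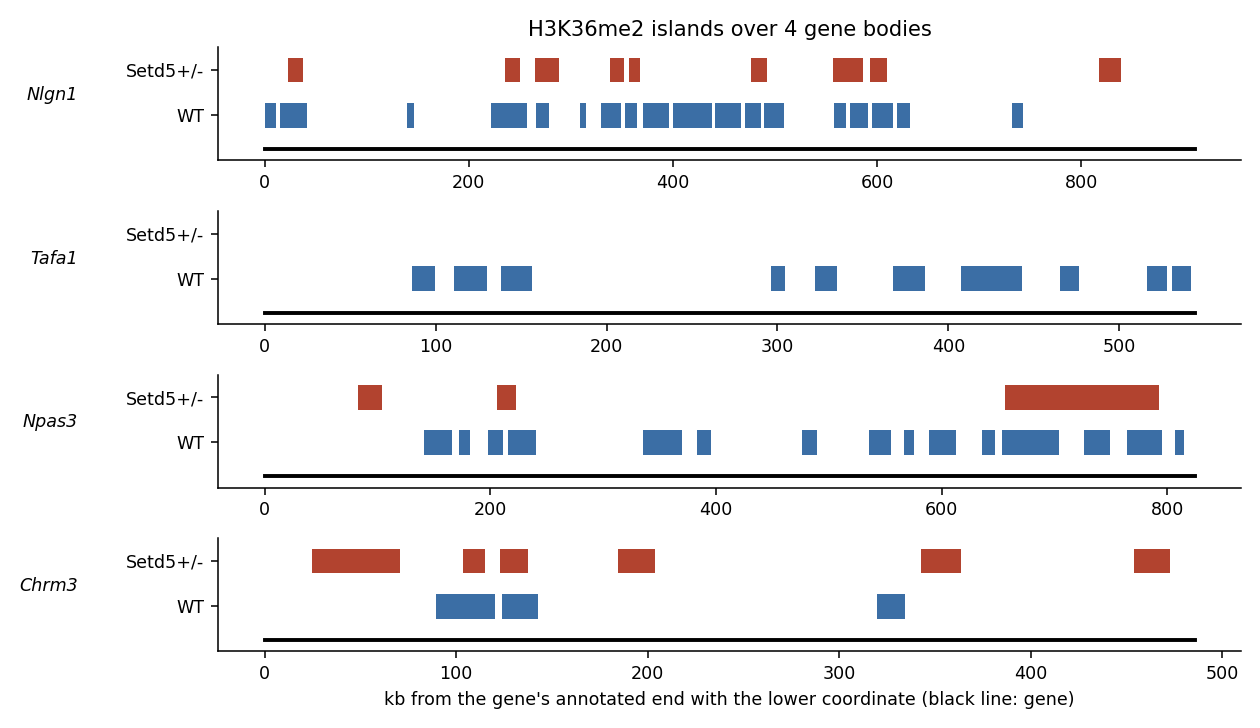
H3K36me2 islands over the bodies of Nlgn1, Tafa1, Npas3 and Chrm3 in Setd5+/- (red, upper row) and WT (blue, lower row) cells, in kb from the annotated gene end with the lower coordinate; the black line is the gene. Nlgn1 has 9 and 18 islands, Tafa1 0 and 10, Npas3 3 and 15 and Chrm3 6 and 3.

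Over gene bodies the loss was spread thinly. Of 13356 protein-coding genes of at least 5 kb on the 16 autosomes, 88 had H3K36me2 over at least 25% of the body in Setd5+/- and 174 in WT cells. It reached this extent in Setd5+/- cells only at 58 genes (0.434%) and in WT cells only at 144 genes (1.08%). When the WT list was cut to the Setd5+/- covered length by dropping its islands of lowest density, the counts were 63 genes in Setd5+/- cells only and 65 in WT cells only, so the excess of genes in WT cells only was not seen at equal covered length. On chromosomes 1, 4 and 15, 503 of 2740 genes (18.4%) reached it in Setd5+/- cells only and 11 (0.401%) in WT cells only. By a difference of at least 25 percentage points, with genes of any length, 53 of 17357 genes (0.305%) were higher in Setd5+/- cells and 132 (0.761%) lower.

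Among the genes of H3K36 methylation, the share with an island was read beside that over all 17357 genes, of which 2.57% were touched in Setd5+/- and 4.76% in WT cells. Of 24 H3K36 methyltransferases, demethylases and readers on the 16 autosomes, none had an island in Setd5+/- cells and 3 had in WT cells. These were Setd5 (0% in Setd5+/-, 24.2% in WT cells), Nsd3 (0%, 12.2%) and Ash1l (0%, 6.203%). H3K36me3 over Setd5 (chr6:113077262-113153432) covered 73.3% in Setd5+/- and 98.5% in WT cells. The lost island lies inside the gene, and no value here reports which allele the reads came from, so the genotype itself is not checked by them. Median differences over this list and over all genes were 0 points, since most genes had no island in either genotype. Mean coverage over the list was 0% in Setd5+/- and 1.77% in WT cells, against 0.539% and 0.929% over all genes.

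Of 16 neural stem cell genes, 0 were touched in Setd5+/- cells and 1 in WT cells, Egfr, the EGF receptor gene, with 0% and 5.44%. Of 13 neuronal genes, 1 was touched in Setd5+/- and 2 in WT cells, Gap43 in both and Syt1, a synaptic vesicle calcium sensor gene, in WT cells, and Gap43 was the only member to differ by 25 points. Of 8 glial genes, Aqp4, the astrocyte water channel gene, was touched in both, with 24.9% in Setd5+/- and 32.3% in WT cells. Of 16 synapse and adhesion genes, 6 were touched in Setd5+/- and 8 in WT cells, and mean coverage was 2.73% and 6.97%, with a median difference of -0.51 points. All 8 had less in Setd5+/- cells. Besides Nlgn1 they include Pcdh9, a protocadherin gene, with 13.6% in Setd5+/- and 26.1% in WT cells, the axon guidance receptor genes Robo1, with 1.25% and 5.02%, and Robo2, with 6.64% and 9.88%, the contactin genes Cntn4, with 0% and 1.02%, and Cntn5, with 0% and 4.66%, and the NMDA receptor gene Grin2b, with 2.61% and 3.82%. No member of this list differed by 25 points, and all genes of the 16 autosomes had mean coverage of 0.539% in Setd5+/- and 0.929% in WT cells. Gene length was not matched for this or the other gene lists, and a longer gene is likelier to be touched. Nlgn1 spans 911 kb, against a median of 16.8 kb over all protein-coding genes.

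Gene families were counted by symbol start, beside the 2.57% of all genes touched in Setd5+/- and 4.76% in WT cells. None of 1044 olfactory receptor genes (Olfr) was touched in either genotype, nor any of 48 Serpin, 40 Defb, 34 Tas2r, 30 Hox, 29 Klr, 24 Cldn or 11 Ugt genes, and at the shares over all genes a family of 48 or fewer would hold few touched genes or none. Those shares are over genes of all lengths, and a longer gene is likelier to be touched. Gene length was not matched for any family, Olfr included. Of 349 vomeronasal receptor genes, 2 were touched in Setd5+/- and 3 in WT cells. The placental prolactin family on chromosome 13 had a higher share, with 10 of 27 genes of the symbol start Prl touched in Setd5+/- and 14 in WT cells, and mean coverage of 23.8% and 36.6%. Of these, 4 were higher by at least 25 points in Setd5+/- cells, Prl8a2, Prl8a8, Prl8a9 and Prl2c1, and 10 lower. The 10 include Prlhr, a receptor gene on chromosome 19 that shares only the start of the symbol. Prl8a8 had 100% in Setd5+/- and 0% in WT cells, and Prl7b1 had 0% and 100%, so single genes of the cluster changed in both directions. Elsewhere Cyp1b1, a cytochrome P450 gene, had 72.2% in Setd5+/- and 0% in WT cells, in 1 island of 14.4 kb with 246 reads. Slc35f1, a brain-expressed solute carrier gene, had 6.08% in Setd5+/- and 35.9% in WT cells, with 2 and 8 islands.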

How the data were processed

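Of the 16 ChIP-seq samples, 13 have island lists, and the inputs are not used here. The submitters' processing notes name Bowtie2 2.2.3, SICER 1.1 and the mouse build GRCm38 (mm10). Settings in the headers of the H3K36me2 lists are 800 bp windows, 2400 bp gaps and an FDR of 0.01, per the file headers. Column 4 holds the authors' deposited counts, taken to be reads in each island because of their values, as no header names them. For the use of the inputs and the total depth, nothing is given in the sources used here.

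Islands were paired by an overlap of 1 bp (Python 3.11.15, numpy 2.4.6, pandas 2.3.3, scipy 1.17.1; figures by matplotlib 3.10.9), and the steps were tested on simulated islands. Reads per kb are not scaled for depth. With 1 library per genotype no test was made. Exact intervals cover counting error only, and reads amplified by PCR with no molecular identifiers are not independent. Genes (21887 protein-coding, 17357 of them on the 16 autosomes, 13980 of these with a promoter window) and promoters are from RefSeq GRCm38.p6. The gene table gives no strand or exons, so exons and introns are not told apart.

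The members, gene lists and alternatives were chosen with earlier results of these data known. Named genes are those overlapping the 10 gained and 10 lost islands with most reads, the 5 shared domains with the largest rise and fall in reads per kb, the 3 longest runs of each class, Setd5, and list or family members differing by 25 points. Not every gene of the rule is reported here. Genes in the maps, printed promoters and list members under 25 points were picked after their values were seen.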

Additional observations from a re-analysis of the deposited data

How the results depend on the processing

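No paired analysis was possible because each genotype has 1 library per mark. Shares depended most on how overlap was defined. The gained share (48% in the main setting) was 63.4% when 50% of an island had to be covered, 74.4% with 50% reciprocal overlap, 58.9% among islands above their list's median reads per kb, 58.8% at equal covered length and 64.5% over all autosomes. The lost share (72.8%) was 79.5%, 87.8%, 79.5%, 67.8% and 61.8% under the same 5 settings, and 74.9% without chromosome 13, a setting added after seeing the data. The lost share exceeded the gained share under every setting except all autosomes, where the covered length turned to a ratio of 1.76. In the same order of settings (50% of the island, 50% reciprocal, above the median density), the ratio of gained to shared Setd5+/- median width (0.913) was 1, 1 and 0.857, and it was 0.84 with islands within 10 kb merged and 0.889 over all autosomes. For lost over shared WT islands (0.842) it was 0.944, 0.8 and 0.824, with 0.824 at equal length and 0.607 merged. The ratio of median reads per kb of gained to shared islands (0.978) was 0.983 with reciprocal overlap, 0.992 above the median density and 0.998 merged, and turned to 1.02 over all autosomes. For lost over shared islands (0.970) it was 0.963, 0.982 and 0.987, with 0.988 at equal length and 0.975 over all autosomes, and turned to 1.003 merged. With all annotated genes the genic share was 53.6% (gained), 43.4% (shared Setd5+/-), 56.2% (lost) and 44.5% (shared WT), and over all autosomes 46.5% (gained), 40.1% (shared Setd5+/-) and 35.9% (shared WT). With only H3K36me3 islands above the median density, median distances were 260.8 (gained), 308 (shared Setd5+/-), 354.4 (lost) and 350.8 kb (shared WT), so lost islands were no longer nearer than shared WT ones; over all autosomes they were 76.8 (gained), 145.6 (shared Setd5+/-) and 175.2 kb (shared WT). The clustering difference of gained islands (19.7 points) was 24.7 with the next island within 1 Mb, 12.6 with 50% of the island covered and 30.6 over all autosomes. That of lost islands (26.3) was 18.6 with 50% covered, 44.5 over all autosomes and 24.7 without chromosome 13. Genes in Setd5+/- cells only (58) were 20 at 50% of the body and 561 over all autosomes, and genes in WT cells only (144) were 33 at 50% of the body and 65 at equal length. The cause of these shifts was not tested, apart from equal length, where WT islands were dropped by construction. The share of lost length under H3K27me3, Setd5+/- minus WT (0.0644 percentage points), was 0.0098 at equal length and 0.121 over all autosomes. Depth limits the lists: islands below each list's lowest density cannot be seen.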

Other observations

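Some of the most crowded stretches held similar numbers of islands in both genotypes. The densest 1 Mb bin, from 37 to 38 Mb of chromosome 10, held 22 Setd5+/- and 27 WT islands, of which 1 was gained and 9 lost, and its annotated genes are Hdac2, a histone deacetylase gene, and Marcks, a protein kinase C substrate gene. The bin from 26 to 27 Mb of chromosome 13 held 21 Setd5+/- and 25 WT islands. The bin from 46 to 47 Mb of chromosome 12, with the neuronal splicing regulator gene Nova1, held 17 Setd5+/- and 23 WT islands, of which 0 were gained and 6 lost.

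In other crowded bins most WT islands had no Setd5+/- partner. The bin with most lost islands, from 100 to 101 Mb of chromosome 14 around Klf12, held 8 Setd5+/- and 22 WT islands, with 2 gained and 16 lost. Around Lsamp, a neuronal adhesion gene (40 to 41 Mb of chromosome 16), 4 Setd5+/- and 18 WT islands were found, with 0 gained and 14 lost. The bin with the highest number of gained islands lay from 44 to 45 Mb of chromosome 2, near the neural crest transcription factor gene Zeb2, with 14 Setd5+/- and 15 WT islands, 9 of them gained and 10 lost. Around Sox9, a glial and neural stem cell transcription factor gene (112 to 113 Mb of chromosome 11), 12 Setd5+/- and 13 WT islands were found, with 7 gained and 7 lost. In the bins of Zeb2 and Sox9 the number of islands was close in both genotypes while many of their positions differed. These bins were picked by the counts given.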
